A study of Mus musculus with 27 samples.

Results

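Genes of the cell division cycle and of DNA replication were followed in mouse bone marrow-derived macrophages (BMDMs) given the bacterial product lipopolysaccharide (LPS) or the cytokine interleukin-4 (IL-4). LPS raised Ccnd2, Cdk6, Cdkn1a and Rbl1, while Rb1, Ccnd3, Cdk2, E2f1, E2f2, Pola1, Mcm2 and Mcm7 fell. IL-4 raised Cdkn1a less than LPS did at each time, lowered Rb1 and Ccnd3, and moved Cdk6 first up and then down. The calls on Cdk6 at single times of IL-4 did not all hold without replicate 2 or without replicate 3. The summed levels of the replication and the mitosis genes were lower at 4 h of either stimulus than untreated in replicates 2 and 3. Replicate 1 started far below them, and the number of calls changed strongly when it was left out.

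The set held 55 genes, all found by symbol among the 45070 genes of the deposited table: 18 genes of DNA replication, 18 of mitosis, 8 G1 cyclins and kinases, 6 E2F and RB factors, 3 inhibitors of cyclin-dependent kinases (CDKs) and 2 genes of checkpoint and repair. The 27 samples were of wild-type BMDMs, grown from the marrow of young adult male C57/BL6 mice. By the paper's methods the cells received DMSO for 1 h before either stimulus, with no separate statement on the untreated samples. One group was left untreated, and the other 8 received either stimulus at 10 ng/ml and were taken after 0.5, 1, 2 or 4 h, with 3 replicates per group. The RNA sequenced was that bound to chromatin, which holds mostly unfinished, unspliced transcripts. Neither the number of mice nor the proliferative state of the cultures is given in the sources used here.

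The cell cycle turns on CDKs that act only when bound to a cyclin. D-type cyclins with CDK4 or CDK6 and E-type cyclins with CDK2 phosphorylate the RB proteins, which otherwise hold E2F factors in check, and active E2F then switches on the replication genes. Inhibitors of the p21 and p27 kind block the cyclin-CDK complexes, and a later wave of genes carries the cell through mitosis. Macrophages grown from bone marrow divide in response to the growth factor M-CSF, and both LPS and IL-4 are known to slow that division.

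Promoters of the set are shown because the replication and mitosis genes are classically driven through different elements. RefSeq windows (GRCm38.p6) of 300 bases, from 250 before to 50 after the annotated start, were matched for 43 of the 55 genes, which gave 48 windows since some genes have several. They were searched on both strands for the E2F element (TTTCCCGC, TTTCGCGC, TTTGCCGC or TTTGGCGC), the cell cycle homology region or CHR (TTTGAA), and the CCAAT box (CCAAT). In the 5 windows printed here, 5′ to 3′ along the gene, capitals mark E2F matches in Mcm3, Pola1 and Rbl1, CHR matches in Top2a, and both in Cdk1.
Mcm3, chr1:20820263-20820562, minus strand: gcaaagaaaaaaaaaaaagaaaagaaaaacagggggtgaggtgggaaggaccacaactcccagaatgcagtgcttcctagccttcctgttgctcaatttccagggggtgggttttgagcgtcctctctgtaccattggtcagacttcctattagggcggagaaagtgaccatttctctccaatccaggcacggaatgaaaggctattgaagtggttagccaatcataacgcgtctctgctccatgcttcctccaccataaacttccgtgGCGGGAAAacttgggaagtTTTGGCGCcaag
Pola1, chrX:93632106-93632405, minus strand: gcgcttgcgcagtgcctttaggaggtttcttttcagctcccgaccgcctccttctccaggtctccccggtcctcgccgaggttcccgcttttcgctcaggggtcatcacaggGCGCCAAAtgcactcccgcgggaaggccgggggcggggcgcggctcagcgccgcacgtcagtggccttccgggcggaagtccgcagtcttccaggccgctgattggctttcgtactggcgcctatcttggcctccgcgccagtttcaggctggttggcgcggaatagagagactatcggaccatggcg
Rbl1, chr2:157204485-157204784, minus strand: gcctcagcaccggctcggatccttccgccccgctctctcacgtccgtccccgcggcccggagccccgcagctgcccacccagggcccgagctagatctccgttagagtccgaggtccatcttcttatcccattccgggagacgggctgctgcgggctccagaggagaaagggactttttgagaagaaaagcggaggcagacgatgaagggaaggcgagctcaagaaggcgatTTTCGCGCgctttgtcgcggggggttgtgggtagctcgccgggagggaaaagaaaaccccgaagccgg
Top2a, chr11:99024140-99024439, minus strand: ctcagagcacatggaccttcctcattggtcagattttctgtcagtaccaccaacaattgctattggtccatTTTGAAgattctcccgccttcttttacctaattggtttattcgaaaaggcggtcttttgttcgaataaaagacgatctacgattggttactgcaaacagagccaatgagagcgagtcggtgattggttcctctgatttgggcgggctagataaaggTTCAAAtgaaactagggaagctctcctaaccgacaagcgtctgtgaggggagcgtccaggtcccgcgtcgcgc
Cdk1, chr10:69352863-69353162, minus strand: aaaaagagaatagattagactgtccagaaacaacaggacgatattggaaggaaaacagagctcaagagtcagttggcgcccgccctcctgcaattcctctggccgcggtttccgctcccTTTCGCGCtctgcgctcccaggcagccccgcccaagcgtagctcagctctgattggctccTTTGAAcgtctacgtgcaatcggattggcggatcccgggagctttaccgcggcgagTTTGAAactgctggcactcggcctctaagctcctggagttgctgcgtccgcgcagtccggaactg

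An E2F match was present in 7 of the 15 replication windows (46.7%), namely those of Cdc6, Cdt1, Mcm3, Mcm5, Mcm6, Mcm7 and Pola1, against 2.26% of all 32851 promoter windows of the same length. Of the 14 mitosis windows 1 held one, that of Cdk1 (7.14%). The CHR letters were in 10 of 14 mitosis windows (71.4%), against 2 of 15 replication windows (13.3%) and 17.9% of all windows. CCAAT was frequent in both, in 13 of 14 mitosis windows (92.9%) and 12 of 15 replication windows (80.0%), against 37.4% of all. E2f2, E2f7 and Rbl1 carried an E2F match among the 6 E2F and RB windows, and none of the 5 windows of the CDK inhibitors held an E2F or CHR match. Matches of different motifs overlapped in 1 of the 48 windows, that of Mcm7. These matches are letters in a window and describe neither binding nor use.

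**Figure D1:**
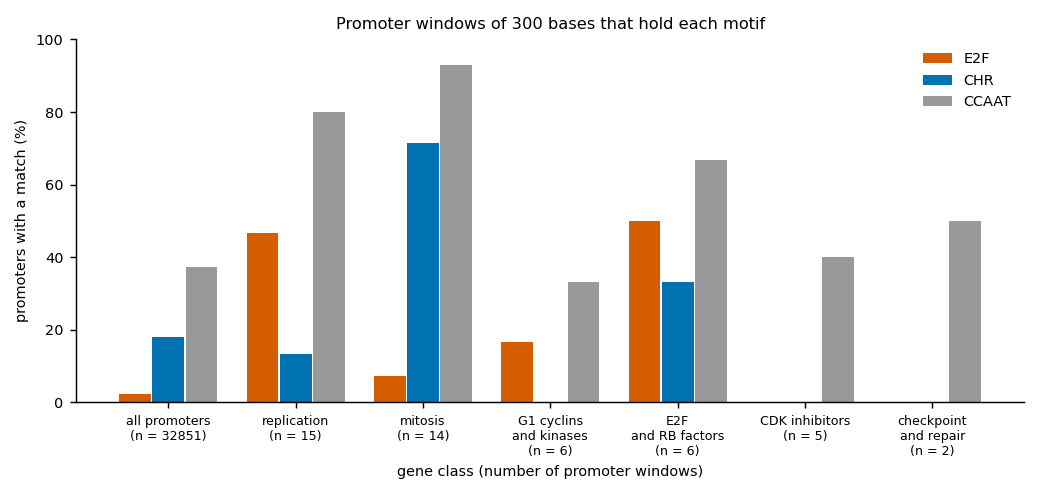
Share of 300-base promoter windows (vertical axis, %) that hold at least 1 match to the E2F, CHR or CCAAT letters, by gene class, with the number of windows under each. CHR matches reached 71.4% of the mitosis windows and E2F matches 46.7% of the replication windows, against 17.9% and 2.26% of all promoters.

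Values are normalised read counts, the authors' whole-number values after scaling the libraries on invariant genes, and triplets are given in the order of replicates 1, 2 and 3. Their sum per sample ran from 2469768 to 2790981 without LPS and from 3571492 to 4058199 with it. A gene was tested if it reached 10 in at least 3 of the 27 samples, which left 13901 genes and 51 of the 55 members. Of the other 4, Rrm2, a subunit of the enzyme that makes deoxyribonucleotides, was listed at 0 in all samples, while Cdc6, Gins2 and Ccne1 reached at most 14, 7 and 12. Another annotated gene overlapped 20 of the 55, and since strand use in counting was not stated their reads cannot be told apart. The highest means of an overlapping gene were 395 at Cdk6 (Gm29868), 244 at Kif20a (Brd8 or Cdc23), 230.0 at Gins2 (Gse1) and 214 at Ccne2 (Ints8). Per kilobase of gene, the untreated level was highest for Cdkn1b (24.6 per kb), Mki67 (12.4), Ccna2 and Cdk2 (11.6 each), and among tested genes it was lowest for Ccnd2 (0.329 per kb).

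All 10 macrophage markers passed the filter, and their summed level lay between 11559 and 29665 in every sample. T and NK, B and erythroid and megakaryocyte markers summed to at most 33, 8 and 46, with Cd3e, Cd3g, Hbb-bs and Hba-a1 at 0 throughout. All 7 stromal and endothelial markers were detected, and they summed to between 53 and 510.

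Replicate 1 stood apart in the genes of division. Summed over the 18 mitosis genes, the untreated samples held 392, 3210 and 3068, an 8.01-fold gap between replicate 1 and the mean of replicates 2 and 3, and over the 18 replication genes 472, 1636 and 1682, a 3.51-fold gap. Summed over the G1 cyclins and kinases the untreated samples held 1220, 976 and 1071, of which Cdk6 made up most. Of the 7 tested, 0 lay lowest in replicate 1 in all 9 groups. Their median log2 ratio of replicates 2 and 3 over 1 was 0.22 untreated, against 2.82 for the mitosis genes and 0.08 for all tested genes. Cdk2, Ccnd1 and Ccne2 were still lowest in replicate 1 untreated. Replicate 1 lay below both others in all 9 groups for 22 of the 51 tested members (43.1%) and for 14 of the 18 mitosis genes, against 4.50% of all tested genes. The summed level of the 8 neutrophil markers was highest in replicate 1, at 18, 7 and 8 in the untreated samples. In replicate 1 it was 62-148 after LPS against 10-37 and 11-37 in the others, and 25-47 after IL-4 against 8-16 and 8-15. Only 2 of the 8 passed the filter. Ngp reached at most 57 and Ltf at most 60 in any sample, and the others at most 16. Ly6g was at 0 in every sample. Stromal and endothelial markers were also highest in replicate 1, at 101, 70 and 53 untreated, at 159-510 after LPS against 54-351 and 61-317, and at 182-312 after IL-4 against 69-203 and 63-177. The part of either list in the low values of replicate 1 was not tested. In such bulk samples, fewer dividing cells and less RNA per cell cannot be told apart. The labels do not say that replicates came from separate cultures, so p-values measure the spread between these samples only.

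**Figure D2:**
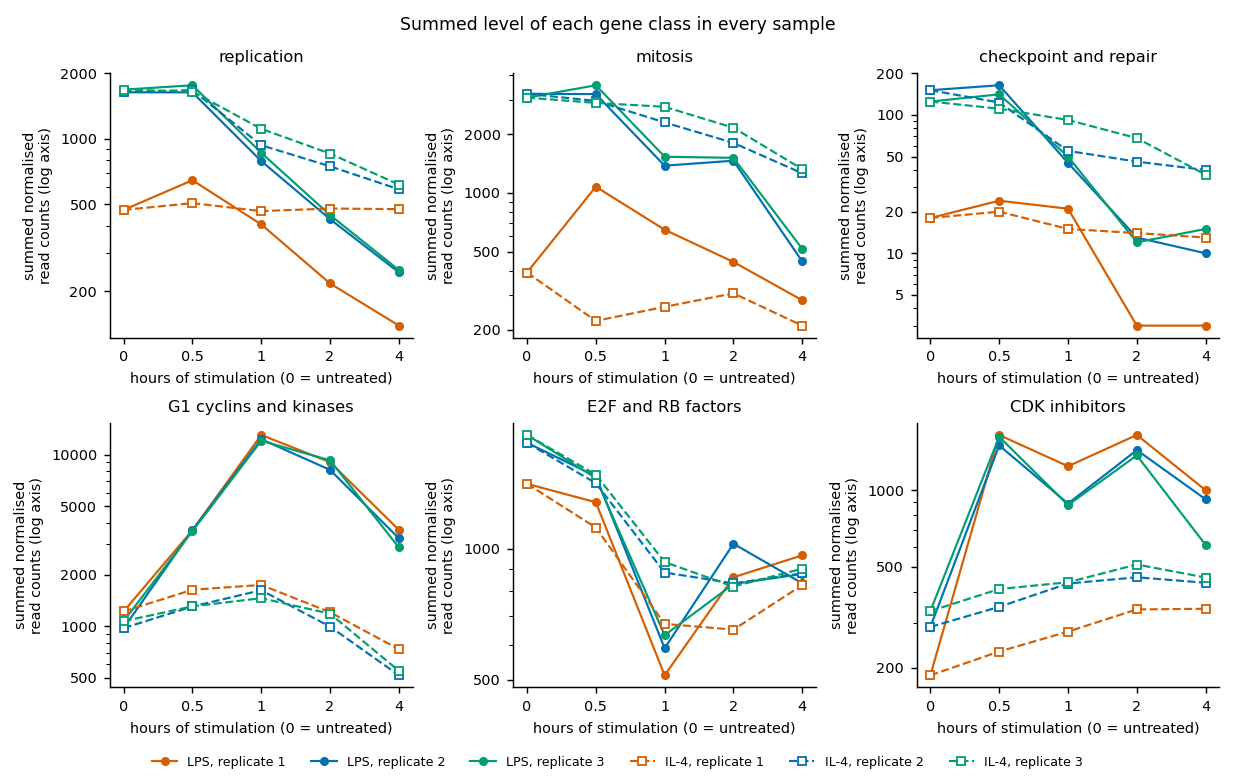
Summed normalised read counts of each gene class (vertical axis, log scale) against hours of stimulation (horizontal axis, evenly spaced, 0 = untreated), 1 line per stimulus and replicate number, which the LPS labels share without being shown to be paired. Replicate 1 (orange) began at 392 in the mitosis panel against 3210 and 3068. In the G1 panel, where Cdk6 makes up most of the untreated sums, it began at 1220 against 976 and 1071.

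Over the LPS course, 33 of the 51 tested members changed by limma's F test over the 4 time points at an adjusted p of 0.05 (64.7%), against 87.6% of all tested genes. Those 33 were 10 of 15 replication genes, 8 of 18 mitosis genes, 6 of 7 G1 cyclins and kinases, all 6 E2F and RB factors, Cdkn1a of the 3 inhibitors, and both Brca1 and Chek1. At the time of its largest change, 7 of the 33 were higher than untreated and 26 lower. The count rose to 50 of 51 without replicate 1 (all genes 90.0%), and was 19 without replicate 2 (all genes 73.3%) and 20 without replicate 3 (72.3%). Lost without either were Aurkb, Bub1, Bub1b, Cdc20, Cdc45, Cdk1, Cdt1, Cenpf, E2f7, Kif20a and Rrm1. Brca1, Ccnd1 and E2f8 were lost without replicate 2 only, and Cdk4 and Chek1 without replicate 3 only.

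Taken singly, the time points gave 5 members above untreated and 6 below (0.5 h), 6 and 17 (1 h), 5 and 21 (2 h), and 4 and 29 (4 h). Among all tested genes the shares above and below were 19.6% and 34.4% (0.5 h), 24.8% and 39.0% (1 h), 26.9% and 39.0% (2 h), and 25.9% and 37.6% (4 h). With every library scaled to the same total, 4 members were above and 15 below (0.5 h), 4 and 24 (1 h), 4 and 32 (2 h), and 4 and 39 (4 h). The shares of all tested genes under that scaling are not given, and the shares above are not its background. That scaling moved the median log2 change of all tested genes from -0.26 to -0.84 (4 h), and median-of-ratios scaling moved it to -0.04. Neither turned any of the 109 called directions. Without replicate 1 the lower counts were 20, 42, 38 and 43, and at 4 h 5 members were higher (27.2% of all genes higher and 39.5% lower). Without replicate 2 they were 2, 10, 13 and 14, and without replicate 3 they were 1, 9, 11 and 15. The share of members below untreated at 4 h was thus 27.5% without replicate 2 (all genes 28.8%, with 21.1% above) and 29.4% without replicate 3 (27.7%, with 21.5% above), near the background in both cases. The median log2 change of the 51 members was -0.38, -1.42, -1.66 and -2.49 over the 4 times, against -0.24, -0.30, -0.29 and -0.26 for all tested genes.

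With IL-4, 4 of the 51 members passed the F test (7.84%, all genes 40.3%), namely Cdkn1a, Cdk6, Ccnd3 and Rb1. Same-numbered samples deviated together in this course, most clearly in replicate 1, while replicates 2 and 3 were less distinct from each other. With replicate as a block, 29 of 51 passed (all genes 53.3%), and without replicate 1 the count was 42 (all genes 47.1%). Cdkn1a was lost without replicate 2 (F test adjusted p = 0.0592). At 4 h, 1 member was higher and 3 were lower (all genes 13.4% and 12.5%). With libraries scaled to equal totals 2 were higher and 3 lower (shares of all genes not given). With the block these were 2 and 34 (all genes 17.3% and 18.1%), and without replicate 1 they were 1 and 41 (14.3% and 17.1%). The median log2 change of the members was -0.27, -0.46, -0.66 and -0.96 over the 4 times, against values between -0.02 and 0.02 for all tested genes. At 4 h of IL-4, 32 of the 51 lay below the untreated sample of the same number in all 3 replicates (62.7%), against 26.3% of all tested genes. They included 17 of the 18 mitosis genes, all but Cdc20, which Elovl1 overlaps on the other strand with a mean of 25.7. The 4 of the 15 replication genes among them lay near the share of all tested genes.

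LPS and IL-4 were also compared directly at matched times, and 25 of 51 members differed by the F test (49.0%, all genes 88.1%). With the replicate block 49 differed (all genes 92.6%), and without replicate 1 48 did (90.3%). That block was fitted over all 9 groups, so it also linked LPS samples to untreated samples by number. In the LPS course that link was not used. At 4 h, 5 members were higher under LPS than under IL-4 and 19 lower (all genes 26.1% and 41.9%), and 7 and 33 with the block (27.8% and 45.3%). The 25 included 6 of 7 G1 cyclins and kinases and 5 of 6 E2F and RB factors, but of the 18 mitosis genes only Mki67 and Kif20a without the block and 17 of 18 with it. Without replicate 2 or replicate 3, none of the 18 passed limma's F test in this comparison, with or without adjustment of p. The share of all tested genes that passed there is not given, so a general loss of calls cannot be told apart.

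**Figure D3:**
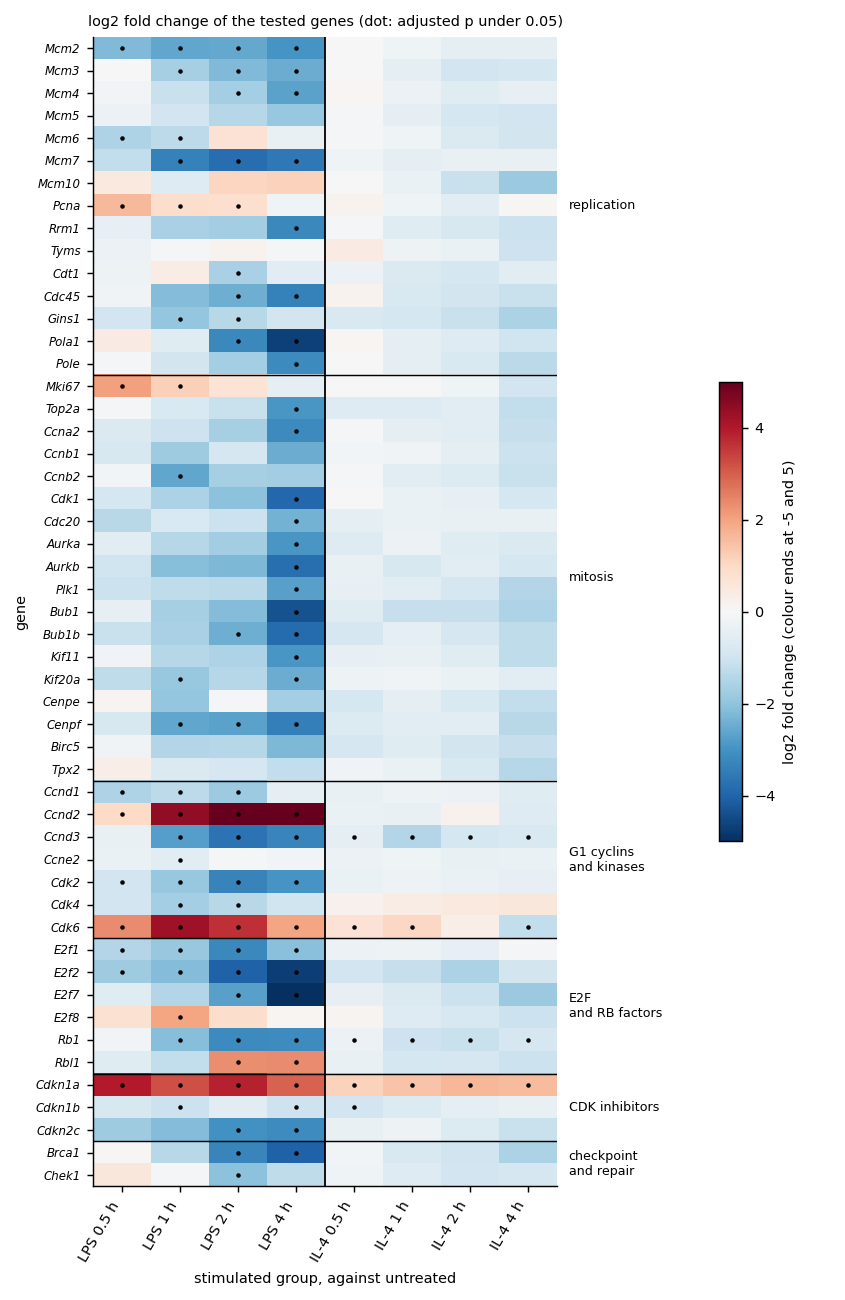
Log2 fold change against untreated (colour, ending at -5 and 5) of the 51 tested members (rows, by class) in the 4 LPS and 4 IL-4 groups (columns), with a dot where the adjusted p at that time point was under 0.05. At 4 h of LPS all 18 mitosis rows and 14 of the 15 replication rows are on the blue side, Mcm10 being the exception, while Ccnd2, Cdk6, Rbl1 and Cdkn1a stand out in red. The median of all tested genes was itself -0.26 there, and the blue rows of Pcna (-0.21) and Tyms (-0.11) lie above it.

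Among the CDK inhibitors, Cdkn1a, which encodes p21, rose under both stimuli. It stood at 70, 91 and 137 in the untreated samples. It was at 1604, 1406 and 1505 after 0.5 h of LPS, 1213, 793 and 779 after 1 h, 1593, 1343 and 1266 after 2 h and 968, 845 and 514 after 4 h. Every LPS sample lay above every untreated one, and the rise was largest after 0.5 h (log2 fold change 3.96 ± 0.25 (SE), adjusted p = 4.53e-09). Under IL-4 it measured 181, 198 and 278 after 0.5 h, 215, 283 and 275 after 1 h, 265, 300 and 365 after 2 h and 255, 286 and 335 after 4 h, all above the untreated range, with its largest rise at 2 h (log2 fold change 1.67 ± 0.23 (SE), adjusted p = 8.37e-05). Without replicate 2 the IL-4 calls at 0.5 h (adjusted p = 0.115) and 1 h (0.0627) were lost, while those at 2 h (0.02) and 4 h (0.0272) held. At each time, from 0.5 h on, every LPS sample lay above every IL-4 sample. In the direct comparison Cdkn1a was higher under LPS than under IL-4 at 2 h (log2 difference 2.18 ± 0.23 (SE), adjusted p = 1.57e-08) and at 4 h (log2 difference 1.36 ± 0.23 (SE), adjusted p = 1.73e-05).

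Cdkn1b, which encodes p27, a brake on cyclin E and CDK2, did not share that rise. Its untreated values were 103, 133 and 142. They were followed by 49, 75 and 95 after 0.5 h of LPS, 32, 79 and 80 after 1 h, 61, 96 and 99 after 2 h and 33, 74 and 89 after 4 h. It did not pass the F test over the LPS course (adjusted p = 0.0903), although each replicate lay below its untreated range at 4 h (log2 fold change -1.04 ± 0.39 (SE), adjusted p = 0.0292). That call was lost without replicate 2 (adjusted p = 0.121) or replicate 3 (0.063). With IL-4 it measured 46, 79 and 71 after 0.5 h, 56, 92 and 88 after 1 h, 67, 128 and 91 after 2 h and 79, 124 and 94 after 4 h, lower after 0.5 h (log2 fold change -0.96 ± 0.27 (SE), adjusted p = 0.028) but short of the F test (adjusted p = 0.0826, or 0.000148 with the replicate block). The call after 0.5 h was lost without replicate 2 (adjusted p = 0.105) or replicate 3 (0.273). Cdkn2c, which encodes p18, an inhibitor of CDK4 and CDK6, read 14, 66 and 56 untreated. With LPS it went to 1, 24 and 28 after 0.5 h of LPS, 1, 16 and 17 after 1 h, 1, 4 and 10 after 2 h and 1, 4 and 7 after 4 h. Its F test missed the threshold (adjusted p = 0.0651) and passed without replicate 1 (1.05e-05), where the change at 4 h was -3.29 on the log2 scale. With IL-4 Cdkn2c stood at 5, 71 and 60 after 0.5 h, 7, 55 and 72 after 1 h, 8, 27 and 55 after 2 h and 8, 23 and 25 after 4 h, and it differed between the stimuli over the course (F test adjusted p = 0.0448, or 0.325 without replicate 2 and 0.196 without replicate 3).

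The D-type cyclins and their kinases moved in opposite directions under LPS. Ccnd2, encoding cyclin D2, went from 8, 7 and 10 untreated to 25, 15 and 14 after 0.5 h of LPS, 241, 149 and 213 after 1 h, 586, 589 and 631 after 2 h and 709, 535 and 477 after 4 h. It was the largest rise in the set (log2 fold change 6.03 ± 0.23 (SE), adjusted p = 5.53e-12 at 2 h), and all LPS samples from 0.5 h on lay above the untreated ones. IL-4 left it at 12, 4 and 5 after 0.5 h, 6, 8 and 5 after 1 h, 16, 7 and 8 after 2 h and 13, 2 and 4 after 4 h, with no call over that course (F test adjusted p = 0.623). A non-coding gene on the other strand, 9330179D12Rik, overlaps Ccnd2 and had a mean of 48.9 over all samples.

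Cdk6, encoding a kinase partner of the D cyclins, peaked earlier. From 834, 548 and 568 in untreated cells it reached 3283, 3377 and 3261 after 0.5 h of LPS, 12661, 12023 and 11679 after 1 h, 8350, 7430 and 8506 after 2 h and 2814, 2577 and 2257 after 4 h. Its peak came at 1 h of LPS (log2 fold change 4.25 ± 0.14 (SE), adjusted p = 1.72e-12), and by 4 h it had come down to 2257 to 2814, still above untreated. Under IL-4 the values were 1291, 973 and 949 after 0.5 h, 1481, 1326 and 1176 after 1 h, 901, 695 and 859 after 2 h and 410, 200 and 247 after 4 h. This small early rise (log2 fold change 1.05 ± 0.23 (SE), adjusted p = 0.00507 at 1 h) was followed by a fall at 4 h to below every untreated sample (log2 fold change -1.22 ± 0.23 (SE), adjusted p = 0.00152), a call that was lost without replicate 3 (adjusted p = 0.059). The early rise was lost without replicate 2 (adjusted p = 0.0907) or replicate 3 (0.112). At 4 h LPS and IL-4 stood 3.21 log2 units apart (adjusted p = 3.09e-13). Gm29868, on the other strand within Cdk6, had a mean of 395 over all samples.

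Ccnd3, encoding cyclin D3, fell under both. Its values were 210, 183 and 233 untreated and 210, 111 and 175 after 0.5 h of LPS, 33, 24 and 34 after 1 h, 12, 16 and 18 after 2 h and 18, 24 and 19 after 4 h. It was lowest at 2 h of LPS (log2 fold change -3.69 ± 0.24 (SE), adjusted p = 2.54e-09), with no overlap with the untreated samples from 1 h on. With IL-4 it went to 162, 138 and 149 after 0.5 h, 80, 66 and 78 after 1 h, 110, 109 and 116 after 2 h and 115, 121 and 133 after 4 h, lowest at 1 h (log2 fold change -1.47 ± 0.11 (SE), adjusted p = 4.18e-07) with higher values later. The fall was deeper under LPS at 4 h (log2 difference -2.55 ± 0.19 (SE), adjusted p = 3.31e-11).

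Ccnd1, encoding cyclin D1, dipped and came back under LPS. It read 21, 34 and 42 untreated. LPS gave 10, 9 and 11 after 0.5 h of LPS, 18, 12 and 8 after 1 h, 8, 5 and 13 after 2 h and 21, 24 and 22 after 4 h. The fall passed at 0.5, 1 and 2 h, lowest at 2 h (log2 fold change -1.82 ± 0.35 (SE), adjusted p = 0.000325), and not at 4 h (adjusted p = 0.268). The call at 1 h was lost without replicate 2 (adjusted p = 0.0563) or replicate 3 (0.125). LTO1, on the other strand at Ccnd1, had a mean of 32.1. IL-4 gave 25, 24 and 23 after 0.5 h, 28, 32 and 19 after 1 h, 33, 19 and 25 after 2 h and 37, 14 and 16 after 4 h, without a call (F test adjusted p = 0.68).

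Cdk4, the other kinase partner of the D cyclins, read 26, 26 and 35 untreated. Its LPS values were 11, 17 and 16 after 0.5 h of LPS, 3, 14 and 12 after 1 h, 8, 15 and 9 after 2 h and 13, 11 and 19 after 4 h. Its fall passed at 1 h (log2 fold change -1.69 ± 0.43 (SE), adjusted p = 0.00297) and at 2 h, the latter not without replicate 3 (adjusted p = 0.129). Under IL-4 it stood at 37, 37 and 28 after 0.5 h, 38, 43 and 32 after 1 h, 41, 42 and 38 after 2 h and 34, 55 and 42 after 4 h, on the other side of untreated but short of a call over the course (F test adjusted p = 0.161), and LPS and IL-4 differed at 4 h (log2 difference -1.55 ± 0.35 (SE), adjusted p = 0.000455). Cdk2, the partner of cyclins E and A, went from 57, 94 and 97 to 30, 47 and 50 after 0.5 h of LPS, 18, 15 and 33 after 1 h, 5, 7 and 10 after 2 h and 7, 10 and 12 after 4 h. At 2 h of LPS it had fallen furthest (log2 fold change -3.33 ± 0.35 (SE), adjusted p = 5.29e-07) and no LPS sample reached the untreated range. IL-4 left Cdk2 at 72, 59 and 52 at 4 h (F test adjusted p = 0.605).

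Of the E-type cyclin genes, Ccne2 read 63, 72 and 82 untreated, then 57, 58 and 57 after 0.5 h of LPS, 43, 49 and 58 after 1 h, 57, 78 and 71 after 2 h and 55, 71 and 70 after 4 h. The F test missed the threshold under LPS (adjusted p = 0.0717) and under IL-4 (0.43), where it measured 54, 59 and 65 after 0.5 h, 56, 61 and 72 after 1 h, 43, 57 and 71 after 2 h and 52, 66 and 54 after 4 h. Ccne1 was too low to test, at 1, 12 and 4 untreated, 0, 1 and 1 after 0.5 h of LPS, 0, 3 and 2 after 1 h, 9, 9 and 3 after 2 h and 5, 2 and 3 after 4 h, and 1, 4 and 7 after 0.5 h of IL-4, 2, 3 and 3 after 1 h, 1, 3 and 1 after 2 h and 2, 1 and 2 after 4 h.

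**Figure D4:**
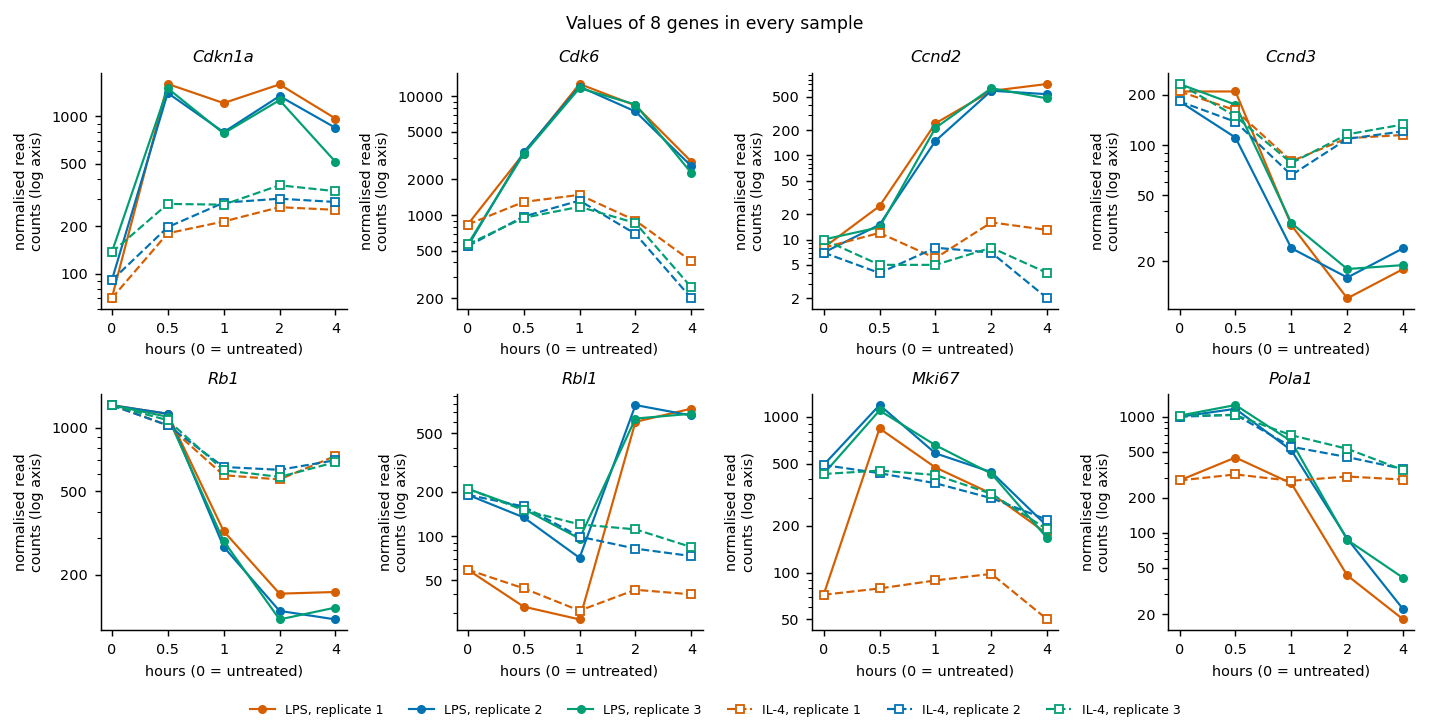
Normalised read counts (vertical axis, log scale) of Cdkn1a, Cdk6, Ccnd2, Ccnd3, Rb1, Rbl1, Mki67 and Pola1 in every sample against hours of stimulation (horizontal axis, evenly spaced, 0 = untreated), 1 line per stimulus and replicate number. The 3 replicates lie close together for Rb1, while replicate 1 of Mki67 begins at 72 against 490 and 429.

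The RB genes went opposite ways under LPS. Rb1, encoding the retinoblastoma protein, read 1281, 1277 and 1277 in untreated cells, the tightest triplet of the set, and 1162, 1166 and 1127 after 0.5 h of LPS, 323, 272 and 290 after 1 h, 163, 135 and 123 after 2 h and 166, 123 and 140 after 4 h. It had fallen by 2 h (log2 fold change -3.19 ± 0.13 (SE), adjusted p = 9.32e-12) and stayed there at 4 h. IL-4 lowered it less, to 1027, 1026 and 1086 after 0.5 h, 595, 651 and 628 after 1 h, 568, 631 and 584 after 2 h and 735, 701 and 686 after 4 h (log2 fold change -1.10 ± 0.06 (SE), adjusted p = 2.49e-08 at 2 h), and at 4 h the direct difference was -2.31 on the log2 scale (adjusted p = 1.88e-15). Rb1 spans 130.3 kb and overlaps Lpar6 and Mir687.

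Rbl1, encoding the related p107, stood at 59, 191 and 210 untreated. It then read 33, 134 and 153 after 0.5 h of LPS, 27, 71 and 96 after 1 h, 600, 781 and 632 after 2 h and 738, 663 and 681 after 4 h. The lower values at 1 h were no call (adjusted p = 0.069). The rise at 4 h reached all 3 replicates and lifted replicate 1 to the level of the others (log2 fold change 2.37 ± 0.56 (SE), adjusted p = 0.00165). With IL-4 it stood at 44, 159 and 150 after 0.5 h, 31, 99 and 120 after 1 h, 43, 82 and 111 after 2 h and 40, 73 and 84 after 4 h. Without the block this was no call (F test adjusted p = 0.57), and with it Rbl1 was lower at 4 h (log2 fold change -1.08 ± 0.18 (SE), adjusted p = 0.000267). The stimuli differed at 4 h (log2 difference 3.45 ± 0.61 (SE), adjusted p = 2.63e-05).

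The activating factors E2f1 and E2f2 fell under LPS. E2f1 read 18, 33 and 19 untreated and 6, 10 and 7 after 0.5 h of LPS, 3, 6 and 8 after 1 h, 1, 3 and 1 after 2 h and 3, 5 and 6 after 4 h, with all replicates at or under 3 at 2 h, at least 7.78-fold lower. E2f2 read 34, 88 and 98 untreated. Its values were 11, 20 and 29 after 0.5 h of LPS, 17, 11 and 15 after 1 h, 6, 1 and 4 after 2 h and 2, 1 and 2 after 4 h, which at 4 h was at least 24.4-fold lower. Both passed the F test over the LPS course (adjusted p = 5.1e-05 and 2.2e-06). IL-4 gave 17, 18 and 19 after 0.5 h, 16, 22 and 19 after 1 h, 16, 22 and 13 after 2 h and 14, 25 and 26 after 4 h for E2f1, a course with no call (F test adjusted p = 0.714). For E2f2 the IL-4 values were 13, 49 and 60 after 0.5 h, 14, 38 and 46 after 1 h, 11, 28 and 31 after 2 h and 24, 36 and 49 after 4 h. E2f2 was not called without the block (F test adjusted p = 0.287) and was with it (0.000193).

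E2f7 and E2f8 encode repressive factors. E2f7 read 5, 107 and 106 untreated, so that replicate 1 lay far under the others, and 6, 48 and 56 after 0.5 h of LPS, 3, 32 and 23 after 1 h, 4, 9 and 4 after 2 h and 0, 0 and 1 after 4 h. At 4 h of LPS it was at least 24.2-fold lower than the untreated mean (F test adjusted p = 0.00282, or 0.103 without replicate 2 and 0.0728 without replicate 3). E2f8 read 13, 56 and 116 untreated. It went to 61, 90 and 82 after 0.5 h of LPS, 139, 199 and 201 after 1 h, 86, 98 and 66 after 2 h and 57, 41 and 45 after 4 h. It rose at 1 h (log2 fold change 1.97 ± 0.51 (SE), adjusted p = 0.00324), where every replicate exceeded the untreated range, and by 4 h it was back within it. Without replicate 1, E2f8 was lower than untreated at 4 h (log2 fold change -0.89 ± 0.27 (SE), adjusted p = 0.00963). Under IL-4, E2f7 measured 4, 73 and 77 after 0.5 h, 6, 33 and 64 after 1 h, 5, 33 and 35 after 2 h and 3, 18 and 19 after 4 h. E2f8 measured 14, 90 and 88 after 0.5 h, 10, 39 and 55 after 1 h, 9, 37 and 45 after 2 h and 9, 25 and 36 after 4 h. Neither was called over the IL-4 course (F test adjusted p = 0.781 and 0.733), and both were with the replicate block (0.00621 and 0.00144).

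In the replication class, 10 of 15 tested genes passed over the LPS course, 9 of them with their largest change downward, and the exception was Pcna. The count was 14 without replicate 1 and 7 without replicate 2 or replicate 3. Taken singly, 1 was above untreated and 2 below (0.5 h), 1 and 5 (1 h), 1 and 8 (2 h), and 0 and 8 (4 h). The class median went from -0.27 at 0.5 h to -2.50 at 4 h on the log2 scale, or to -1.96 with the 4 tested genes at or under 3 in every replicate (Mcm2, Mcm4, Mcm7 and Cdc45) put at their bound. The summed class fell from 472, 1636 and 1682 to 139, 244 and 250 at 4 h of LPS. Pola1 made up most of the untreated sums and of that fall, so the sums follow Pola1 more than the other replication genes. At 4 h of IL-4 the sums were 476, 587 and 617, so that replicate 1 kept its untreated level while the others came down to near it.

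The MCM2 to MCM7 proteins form the ring that unwinds DNA at the fork. Mcm2 stood at 7, 15 and 13 untreated and 2, 2 and 1 after 0.5 h of LPS, 0, 3 and 1 after 1 h, 2, 0 and 2 after 2 h and 0, 1 and 1 after 4 h, and at 4 h was at least 3.89-fold lower. Mcm3 stood at 19, 44 and 41, then 24, 36 and 37 after 0.5 h of LPS, 5, 15 and 11 after 1 h, 5, 7 and 7 after 2 h and 2, 6 and 9 after 4 h. Mcm4 went from 9, 16 and 27 to 12, 16 and 15 after 0.5 h of LPS, 3, 10 and 10 after 1 h, 1, 7 and 8 after 2 h and 1, 2 and 2 after 4 h, at least 5.78-fold lower at 4 h. All 3 passed the F test (adjusted p = 0.000951, 0.000151 and 0.00177), Mcm2 from 0.5 h on and Mcm3 from 1 h on. Without replicate 3 the first of these calls was lost for Mcm2 (adjusted p = 0.0841) and for Mcm3 (0.0581).

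Mcm5 read 9, 45 and 41 untreated and 12, 29 and 26 after 0.5 h of LPS, 3, 24 and 26 after 1 h, 4, 13 and 13 after 2 h and 1, 12 and 13 after 4 h. It missed the threshold over the course with replicate 1 (adjusted p = 0.211) and passed without it (8.04e-05). Mcm7 went from 26, 53 and 74 to 9, 28 and 28 after 0.5 h of LPS, 1, 4 and 9 after 1 h, 1, 3 and 4 after 2 h and 3, 3 and 3 after 4 h. At 4 h it was at least 17.0-fold lower (F test adjusted p = 4.16e-05). The miRNA genes Mir106b, Mir25 and Mir93 lie within Mcm7, none with a mean over 0.4.

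Mcm6 did not follow its partners. It stood at 27, 73 and 81 untreated and 7, 27 and 30 after 0.5 h of LPS, 12, 30 and 26 after 1 h, 74, 101 and 96 after 2 h and 27, 60 and 44 after 4 h. It was lower at 0.5 h (log2 fold change -1.54 ± 0.52 (SE), adjusted p = 0.0202) and 1 h but not at 2 h. At 2 h replicates 2 and 3 lay above every untreated sample, and replicate 1, at 74, lay within the untreated range. The call at 0.5 h was lost without replicate 2 (adjusted p = 0.1) and without replicate 3 (0.099), and so was that at 1 h (0.134 and 0.189). At 2 h Mcm6 was higher under LPS than under IL-4 (log2 difference 1.44 ± 0.45 (SE), adjusted p = 0.00678), which was lost without replicate 2 (adjusted p = 0.0733) or 3 (0.084).

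Mcm10, which helps to start the assembled helicase, read 5, 26 and 44 untreated and 14, 41 and 30 after 0.5 h of LPS, 11, 10 and 13 after 1 h, 9, 73 and 93 after 2 h and 22, 58 and 57 after 4 h. At 2 and 4 h replicates 2 and 3 lay above every untreated sample, and replicate 1, at 9 and 22, lay within the untreated range of 5 to 44. There was no call over the course (F test adjusted p = 0.181), while without replicate 1 Mcm10 was higher at 2 h (log2 fold change 1.26 ± 0.28 (SE), adjusted p = 0.00108). Against IL-4 it was higher under LPS at 4 h (log2 difference 2.99 ± 1.08 (SE), adjusted p = 0.0179), which was lost without replicate 2 (adjusted p = 0.0797) or 3 (0.0605).

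Pcna, the sliding clamp of the polymerases, was the one called riser of the class. It read 14, 13 and 27 untreated. LPS took it to 61, 47 and 57 after 0.5 h of LPS, 39, 31 and 28 after 1 h, 31, 28 and 34 after 2 h and 17, 13 and 14 after 4 h. All 3 replicates at 0.5 h exceeded the untreated range (log2 fold change 1.62 ± 0.26 (SE), adjusted p = 9.75e-05), and at 4 h they were back within it. Pola1, the catalytic subunit of the polymerase that lays down primers, stood at 283, 1000 and 1023 untreated. It followed with 446, 1171 and 1262 after 0.5 h of LPS, 267, 514 and 615 after 1 h, 43, 89 and 87 after 2 h and 18, 22 and 41 after 4 h. It gave the largest fall of the class (log2 fold change -4.65 ± 0.52 (SE), adjusted p = 1.17e-06), with no fall at 0.5 h. Pola1 is the longest gene of the set (327.4 kb) and overlaps 3 non-coding genes. Rrm1, the large subunit of ribonucleotide reductase, went from 28, 88 and 69 to 14, 68 and 73 after 0.5 h of LPS, 3, 41 and 37 after 1 h, 8, 24 and 21 after 2 h and 4, 8 and 4 after 4 h, with a call at 4 h (log2 fold change -3.22 ± 0.81 (SE), adjusted p = 0.00271) that was lost without replicate 3 (adjusted p = 0.0526).

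Cdt1 and Cdc45, which load and activate the helicase, also passed, Cdt1 with a fall at 2 h (log2 fold change -1.63 ± 0.44 (SE), adjusted p = 0.00412) and Cdc45 with one at 4 h (log2 fold change -3.37 ± 1.02 (SE), adjusted p = 0.00906). The call on Cdt1 was lost without replicate 3 (adjusted p = 0.128), and that on Cdc45 without replicate 2 (0.0862) or replicate 3 (0.101). Gins1, Pole and Tyms missed the F test (adjusted p = 0.056, 0.0522 and 0.951), and Gins1 and Pole passed without replicate 1 (0.00247 and 1e-07). Tyms, thymidylate synthase, read 7, 38 and 49 untreated and 19, 25 and 23 at 4 h of LPS.

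Under IL-4 none of the 15 passed limma's F test, nor did any at an unadjusted p of 0.05, but 8 passed with the replicate block and 12 without replicate 1, all with their largest change downward. Mcm3 stood at 17, 46 and 45 after 0.5 h, 17, 35 and 22 after 1 h, 15, 15 and 19 after 2 h and 17, 15 and 20 after 4 h. Mcm5 stood at 7, 47 and 43 after 0.5 h, 8, 25 and 30 after 1 h, 7, 24 and 15 after 2 h and 10, 13 and 16 after 4 h. Mcm6 stood at 32, 75 and 60 after 0.5 h, 40, 49 and 54 after 1 h, 35, 32 and 30 after 2 h and 27, 23 and 35 after 4 h. In all 3, replicates 2 and 3 lay by 4 h near the level that replicate 1 held from the start. Mcm2 measured 6, 12 and 18 after 0.5 h, 7, 12 and 10 after 1 h, 8, 7 and 8 after 2 h and 10, 10 and 5 after 4 h. Mcm4 measured 13, 16 and 24 after 0.5 h, 10, 16 and 13 after 1 h, 7, 11 and 13 after 2 h and 13, 11 and 11 after 4 h. Mcm7 measured 23, 47 and 58 after 0.5 h, 28, 38 and 36 after 1 h, 22, 43 and 48 after 2 h and 30, 39 and 39 after 4 h. None of these 3 passed with the block, and Mcm7, whose replicates 2 and 3 had been at 53 and 74 untreated, was lower at 4 h without replicate 1 (log2 fold change -0.67 ± 0.19 (SE), adjusted p = 0.0212). Mcm10 gave 3, 47 and 34 after 0.5 h, 5, 19 and 29 after 1 h, 1, 17 and 19 after 2 h and 0, 11 and 12 after 4 h, a fall with the block (log2 fold change -1.85 ± 0.34 (SE), adjusted p = 0.000577 at 4 h). Pcna gave 13, 26 and 21 after 0.5 h, 11, 19 and 15 after 1 h, 12, 11 and 12 after 2 h and 25, 13 and 17 after 4 h. Rrm1 gave 21, 98 and 70 after 0.5 h, 19, 40 and 64 after 1 h, 20, 42 and 37 after 2 h and 19, 32 and 29 after 4 h. Pola1 went to 319, 1043 and 1033 after 0.5 h, 281, 552 and 694 after 1 h, 306, 450 and 530 after 2 h and 288, 355 and 348 after 4 h, lower at 4 h with the block (log2 fold change -1.01 ± 0.25 (SE), adjusted p = 0.00565), although replicate 1 stayed at its untreated level.

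Of the 18 mitosis genes, all tested, 8 passed over the LPS course. All 18 did without replicate 1, and Mki67 alone did without replicate 2 or without replicate 3 (F test adjusted p = 0.021 and 0.0327). Taken singly, 1 was above untreated and 0 below (0.5 h), 1 and 3 (1 h), 0 and 2 (2 h), and 0 and 12 (4 h). All 18 had a negative log2 change at 4 h, with a median of -2.80 (-3.19 without replicate 1, where all 18 were called lower). Without replicate 2 the median was -2.45 with 2 called lower, and without replicate 3 it was -2.71 with 3. Their sum went from 392, 3210 and 3068 untreated to 283, 447 and 518 at 4 h of LPS. In replicate 1 the sum was 1076 at 0.5 h. Without Mki67 the sums were 320, 2720 and 2639 untreated and 235, 2010 and 2452 at 0.5 h.

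Mki67, the gene of the proliferation marker Ki-67, rose early under LPS. It stood at 72, 490 and 429 untreated. It reached 841, 1188 and 1097 after 0.5 h of LPS, 472, 582 and 656 after 1 h, 321, 441 and 431 after 2 h and 177, 198 and 166 after 4 h. At 0.5 h every replicate lay above all untreated samples (log2 fold change 2.05 ± 0.48 (SE), adjusted p = 0.00223). By 4 h all 3 values, 166 to 198, lay within the untreated range of 72 to 490, and without replicate 1 Mki67 was lower (log2 fold change -1.33 ± 0.11 (SE), adjusted p = 1.09e-07). With IL-4 it measured 79, 434 and 451 after 0.5 h, 89, 374 and 423 after 1 h, 98, 300 and 320 after 2 h and 50, 218 and 189 after 4 h, with no call over the course (F test adjusted p = 0.858). LPS and IL-4 differed over the course (F test adjusted p = 0.0286), a call lost without replicate 2 (0.108) or 3 (0.0919).

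Top2a, the topoisomerase of dividing cells, read 38, 488 and 430 untreated and 35, 430 and 463 after 0.5 h of LPS, 39, 193 and 217 after 1 h, 21, 191 and 184 after 2 h and 9, 30 and 60 after 4 h. Its F test missed the threshold (adjusted p = 0.151) and passed without replicate 1 (2.41e-08), with a change of -3.40 at 4 h on the log2 scale. Under IL-4 it measured 13, 389 and 385 after 0.5 h, 20, 306 and 338 after 1 h, 34, 263 and 282 after 2 h and 27, 149 and 155 after 4 h. Replicates 2 and 3 were lowest at 4 h. With the block the value at 4 h was lower than untreated (log2 fold change -1.22 ± 0.34 (SE), adjusted p = 0.0112), although the F test over the course was not passed (adjusted p = 0.0731).

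Bub1 and Bub1b encode kinases of the spindle checkpoint, and Cdk1 the kinase that starts mitosis. Bub1 stood at 22, 268 and 252 untreated and 14, 198 and 225 after 0.5 h of LPS, 16, 49 and 59 after 1 h, 8, 44 and 41 after 2 h and 1, 6 and 12 after 4 h. Bub1b stood at 19, 185 and 166 and then at 13, 59 and 75 after 0.5 h of LPS, 17, 40 and 28 after 1 h, 6, 20 and 26 after 2 h and 3, 5 and 8 after 4 h. Cdk1 stood at 33, 166 and 223 and then at 15, 87 and 141 after 0.5 h of LPS, 11, 47 and 79 after 1 h, 5, 50 and 57 after 2 h and 1, 19 and 8 after 4 h. All replicates of the 3 genes were at or under 19 by 4 h, against 19 to 268 untreated. The changes at 4 h were -4.36, -3.83 and -3.93 on the log2 scale (adjusted p = 0.00294, 0.000615 and 0.00534). The call on Bub1 was lost without replicate 2 (adjusted p = 0.0597) and that on Cdk1 without replicate 3 (0.0579).

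The other mitosis genes that passed over the LPS course were Aurkb, the kinase of the chromosomal passenger complex, Cenpf of the kinetochore, Cdc20, which activates the anaphase-promoting complex, and the kinesin Kif20a. Their changes at 4 h were -3.77, -3.40, -2.38 and -2.46, and each of these calls was lost without replicate 2 (adjusted p = 0.102, 0.0936, 0.0938 and 0.0507). Without replicate 3, Cenpf, Cdc20 and Kif20a were lost as well (adjusted p = 0.0724, 0.0692 and 0.08). Like Top2a, Ccna2, Ccnb1, Ccnb2, Aurka, Plk1, Kif11, Cenpe, Birc5 and Tpx2 missed the F test, their log2 changes at 4 h running from -3.17 for the cyclin gene Ccna2 to -1.23 for Tpx2, a spindle assembly factor. Cenpe, a kinetochore motor, read 33, 290 and 264 untreated and 28, 326 and 367 after 0.5 h of LPS, 5, 93 and 82 after 1 h, 20, 309 and 353 after 2 h and 13, 63 and 85 after 4 h, and Tpx2 in replicate 1 was at 42 at 4 h against 25 untreated.

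Under IL-4 none of the 18 mitosis genes passed limma's F test, nor did any at an unadjusted p of 0.05. With the replicate block 11 passed, and 16 without replicate 1. Bub1 measured 8, 237 and 211 after 0.5 h, 4, 143 and 197 after 1 h, 8, 117 and 138 after 2 h and 10, 74 and 75 after 4 h. Bub1b measured 7, 125 and 105 after 0.5 h, 15, 98 and 140 after 1 h, 12, 77 and 102 after 2 h and 8, 62 and 79 after 4 h. Cdk1 measured 23, 239 and 214 after 0.5 h, 19, 182 and 178 after 1 h, 27, 121 and 159 after 2 h and 21, 76 and 119 after 4 h. In each of them replicates 2 and 3 at 4 h lay below all their earlier IL-4 values and replicate 1 stayed low throughout. The sum of the class at 4 h of IL-4 was 210, 1260 and 1323, and the median log2 change was -1.14 (-1.15 without replicate 1). LPS had taken replicates 2 and 3 lower by the same time, to 447 and 518.

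Of the checkpoint and repair genes, Brca1, which acts in homologous recombination, stood at 13, 121 and 106 untreated. It read 13, 128 and 114 after 0.5 h of LPS, 7, 32 and 37 after 1 h, 2, 5 and 10 after 2 h and 1, 2 and 6 after 4 h. It was called lower at 2 h (log2 fold change -3.28 ± 0.94 (SE), adjusted p = 0.00655) and 4 h, and without replicate 2 neither call held (adjusted p = 0.102 and 0.0555). Chek1, the kinase that answers to stalled forks, stood at 5, 30 and 19 and then at 11, 36 and 27 after 0.5 h of LPS, 14, 13 and 13 after 1 h, 1, 8 and 2 after 2 h and 2, 8 and 9 after 4 h, lowest at 2 h (log2 fold change -2.04 ± 0.67 (SE), adjusted p = 0.0141), a call that was lost without replicate 3 (adjusted p = 0.171). IL-4 gave 12, 109 and 94 after 0.5 h, 9, 46 and 79 after 1 h, 9, 40 and 57 after 2 h and 6, 32 and 29 after 4 h for Brca1. For Chek1 the values were 8, 14 and 17 after 0.5 h, 6, 9 and 13 after 1 h, 5, 6 and 11 after 2 h and 7, 8 and 8 after 4 h. Neither passed over that course (F test adjusted p = 0.707 and 0.423), and Brca1 passed with the block (0.000349).

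Genes of the same pathways outside the set were counted in 5 further lists, to be read against the 87.6% (LPS) and 40.3% (IL-4) of all tested genes that passed, or 53.3% under IL-4 with the replicate block. Without replicate 1, 2 or 3 the share under LPS was 90.0%, 73.3% and 72.3%. Under IL-4 it was 47.1% without replicate 1 and is not given without replicate 2 or 3. Of 40 tested replication genes (45 listed), 36 changed over the LPS course, 34 of them with their largest change downward, and 7 passed under IL-4, or 21 with the block. Leaving out replicate 1, 2 or 3 gave 40, 22 and 26 under LPS and 24, 0 and 0 under IL-4 (5 and 3 at an unadjusted p of 0.05 in the last cases). Ticrr, a firing factor, went from 13, 78 and 90 to 1, 2 and 7 at 4 h of LPS, and Rpa1, of the single-strand binding complex, from 94, 139 and 151 to 13, 18 and 9. The 2 with a largest change upward were the MCM-binding gene Mcmbp, from 297, 275 and 294 to 1180, 1053 and 1037, and the clamp-loader gene Rfc5, from 22, 37 and 46 to 55, 63 and 62. Under IL-4 the origin recognition genes Orc4 and Orc2 rose (log2 fold change 0.60 and 0.78) while Orc5 and Rfc2 fell (-0.61 and -0.58).

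Of 59 tested mitosis genes (61 listed), 33 changed over the LPS course, 30 downward, with a median log2 change of -2.96 at 4 h. Leaving out replicate 1, 2 or 3 gave 57, 6 and 10. Ttk and Cdca2 gave the largest falls, Ttk from 8, 121 and 100 to 0, 0 and 5, and Cdca2 from 28, 265 and 313 to 5, 4 and 4. Pttg1, the securin gene, rose from 11, 13 and 12 to 113, 156 and 133 at 2 h. Ckap2l stood at 12, 121 and 132 untreated and 83, 508 and 505 at 0.5 h, a change that passed over the course but not at that time (adjusted p = 0.0847). None of the 59 passed limma's F test over the IL-4 course with or without adjustment of p, while 38 did with the block and 50 without replicate 1.

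Of 23 tested G1 regulators (24 listed), 19 changed over the LPS course, 14 downward, and 8 passed under IL-4, or 14 with the block. Leaving out replicate 1, 2 or 3 gave 22, 17 and 15 under LPS and 16, 3 and 4 under IL-4. Tfdp2, an E2F partner, fell from 140, 229 and 204 to 5, 5 and 17 at 2 h of LPS, and Skp2, which marks p27 for breakdown, from 119, 197 and 179 to 11, 31 and 25 at 1 h. E2f5 rose under both stimuli, from 83, 90 and 88 to 283, 211 and 207 at 2 h of LPS and 278, 265 and 309 at 2 h of IL-4. E2f3 rose at 1 h of LPS, from 321, 274 and 284 to 784, 653 and 612. Cdk7, of the CDK-activating kinase, rose at 2 h of IL-4, from 161, 168 and 151 to 346, 400 and 380. Its cyclin gene Ccnh fell at 0.5 h of IL-4, from 183, 179 and 184 to 104, 119 and 125, and Ccng1, called over that course, was at 46, 69 and 72 at 0.5 h from 71, 99 and 94 (adjusted p = 0.121 at that time).

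Of 17 tested inhibitors and growth arrest genes (21 listed), 16 changed over the LPS course, 10 downward, and 10 passed under IL-4, 9 downward, or 12 with the block. Leaving out replicate 1, 2 or 3 gave 17, 13 and 14 under LPS and 12, 4 and 6 under IL-4. Mdm2, which restrains p53, rose at 0.5 h of LPS from 455, 503 and 505 to 3324, 3863 and 3053, and Btg2, an antiproliferative gene, from 22, 30 and 46 to 162, 154 and 195. Foxo3 fell at 2 h of LPS from 1191, 1156 and 1144 to 65, 52 and 40, and Trp53inp1 from 145, 197 and 212 to 9, 3 and 7. Under IL-4 the p53 target genes Trp53inp1 and Sesn1 fell at 0.5 h (log2 fold change -1.49 and -1.28), and Trp53, called over the course, stood at 125, 138 and 129 at 4 h against 95, 110 and 86 untreated (adjusted p = 0.0782 at that time).

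Of 19 tested checkpoint and repair genes (20 listed), 12 changed over the LPS course, 11 downward. Under IL-4 Atm was the only one to pass without the block, against 11 with it. Leaving out replicate 1, 2 or 3 gave 17, 6 and 7 under LPS and 16, 0 and 0 under IL-4 (none at an unadjusted p of 0.05 in the last cases either). Brca2 fell from 37, 116 and 118 to 1, 6 and 1 at 4 h of LPS and Chek2 from 84, 126 and 149 to 9, 6 and 7. Atm, the kinase that answers to double-strand breaks, rose at 2 h of LPS from 116, 196 and 171 to 398, 450 and 488, and fell at 1 h of IL-4 to 93, 117 and 117.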

How the data were processed

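The authors made the values from single-end reads of chromatin-associated RNA (Smart-seq2 with random hexamers). Reads were aligned with TopHat2 2.1.1 to mm10, multi-mapping and blacklisted reads were removed (bedtools 2.29.2), reads were counted per gene over GRCm38.p6, and libraries were scaled on invariant genes. DESeq2 and R 3.6.2 are also named in the submitters' processing notes. The deposited values are normalised read counts rounded to whole numbers, which makes them a score here, so the depth in reads is unknown and no counting interval is given.

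Here, log2(value + 1) was tested with limma 3.58.1 in R 4.3.3 with the trend option, and p-values were adjusted by Benjamini-Hochberg over 13901 genes, with 0.05 as the threshold. The code was tested on simulated data. Fold changes are on this scale and understate changes of low genes. Each course was fitted with its 15 samples, and LPS against IL-4 with all 27. Where every replicate of a group was at or under 3, the change is a bound against 3. All comparisons with untreated share the same 3 samples. The impulse model used by the study was not run.

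Replicate numbers come from the labels. Deviations of same-numbered samples correlated at 0.207 to 0.680 in the 12 pairs of the IL-4 course and at 0.192 to 0.632 in those of LPS against IL-4, so the numbers were taken to pair those samples. Of the 12 IL-4 samples, 8 matched best with the untreated sample of their own number. Replicate 1 gave the highest values, 0.519 to 0.680. Replicates 2 and 3 were less distinct: IL-4 1 h replicate 2 correlated at 0.239 with untreated replicate 2 and at 0.310 with untreated replicate 3.

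Members and gene lists were chosen with earlier results of these data known. All 55 members are accounted for. Values in every sample are given for a list of genes named in the plan and, per stimulus and class, for up to 3 members with the largest change among those passing the F test with a mean of at least 50 in the higher group. From the other lists up to 2 rises and 2 falls per stimulus were named by the same limits. Other pseudocounts, filters, scalings, weights and sample sets were tried.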

Additional observations from a re-analysis of the deposited data

How the results depend on the processing

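Over the LPS course, where 33 members changed, the count was 13 with a mean of at least 50 (which leaves fewer genes to test), 18 with replicates 2 and 3 averaged, and 50 with a replicate block. Leaving out one replicate gave 19 to 50 (72.3% to 90.0% of all tested genes), the highest without replicate 1. In the LPS course the numbers were not taken as pairs with untreated. The reason was that 1 of their 12 correlations between deviations of same-numbered samples fell under 0.1 (range 0.0897 to 0.596). The block of LPS against IL-4 spans all 9 groups and so does link them. In the IL-4 course, which was taken as paired, all 12 were over 0.1. The number of samples that matched best with their own number was 8 in the LPS course and also 8 in the IL-4 course. Both courses share the untreated samples. With the block all 18 mitosis and 14 of 15 replication genes passed under LPS. The share of all tested genes under that block is not given, so these counts have no background beside them. Over the IL-4 course, where 4 changed, array weights gave 9, the replicate block 29 (all genes 53.3%), and leaving out one replicate 3 to 42. The 42 came without replicate 1 (all genes 47.1%). Between LPS and IL-4, where 25 differed, a mean of at least 50 gave 9, the replicate block 49 (all genes 92.6%), and leaving out one replicate 18 to 48. The 48 came without replicate 1 (all genes 90.3%). For the mean of at least 50, the averaging and the array weights, the shares of all tested genes are not given. Nor are those of IL-4 and of LPS against IL-4 without replicate 2 or 3. Their counts show only how far the number of calls moved. The causes were not tested. For the members given with values in every sample, 461 values of the largest change under the alternatives kept their direction, and 28 of them were no longer past the threshold, of which 10 came from leaving out replicate 3, 8 from leaving out replicate 2, 8 from averaging replicates 2 and 3, and 2 from dropping the filter.

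Read depth is unknown, and with 3 replicates a difference in one library moved many calls. Strand use in counting was not stated.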
